A study of Ovis aries with 6 samples.

Results

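Fatty acid beta-oxidation burns fatty acids in mitochondria, and lipid droplets store them as triglyceride and cholesterol ester until lipases release them. Long-chain fatty acids enter the mitochondrion as carnitine esters through CPT1 on the outer membrane and CPT2 on the inner membrane, and dehydrogenases, a hydratase and a thiolase then shorten them in cycles. Perilipins coat the droplets, and the lipase encoded by PNPLA2 takes the first fatty acid off a stored triglyceride. In the ovary, the follicle's somatic cells use droplets as a store for steroid synthesis, and in mice beta-oxidation is known to matter for the maturation of the oocyte. The genes described here, 9 in all, were listed by role: CPT1A, CPT2, ACADM, ACADVL, HADHA, HADHB, PLIN2, PLIN3 and PNPLA2. They were looked up by gene name in the deposited table of 34119 loci, and where a name had several loci the protein-coding one with the most counts was taken. Of the 9, 8 were found and all 8 passed the filter on low values, an FPKM value averaging 1 or more across the 6 libraries, which 14702 named loci passed in all. ACADM, the medium-chain acyl-CoA dehydrogenase, was not analysed here.

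The study sequenced rRNA-depleted RNA of sheep (Ovis aries) granulosa cells, the somatic cells that surround the oocyte in the follicle. There were 3 libraries from atretic follicles, which are degenerating, and 3 from healthy follicles. The title puts the study in the context of ferroptosis and an oxidised linoleic acid. No treatment, breed, age, follicle size or donor animal is given in the labels, and the 3 libraries of a group are described as independent biological replicates. If replicates of a group came from shared animals, the p-values would measure a spread that is partly technical. Group means are given with the SD over 3 libraries throughout.

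The libraries held 87455037 to 91597388 counts each, and the 8 genes had between 576 and 13169 counts in a library. The granulosa genes FSHR, the FSH receptor, and FOXL2, a lineage transcription factor, were well expressed in all libraries. FSHR had 1268 to 1380 CPM in atretic and 1107 to 1826 CPM in healthy libraries, and FOXL2 had 197 to 229 CPM in atretic and 206 to 372 CPM in healthy ones. CPM here means counts scaled to a common library size, with TMM normalization. Healthy replicate 3 was unlike its group. The fit's biological coefficient of variation was 0.156 without this library and 0.29 with it. In that library INHBA, the inhibin beta A subunit, had 14810 CPM, against 2221 to 3007 CPM in the other 5. Of 10 granulosa markers, 6 had a locus of their own, and each of the 6 was highest in healthy replicate 3. Their summed level was 25771 CPM there, against 6633 to 7767 CPM in the other 5. Of 6 theca and steroidogenic cell markers, 3 had a locus of their own, with a summed level of 44.5, 45.3 and 45.2 CPM in the atretic libraries, against 21.1, 13.2 and 311 CPM in the healthy ones. Most of this was LHCGR, the LH receptor, with 42.3 to 43.1 CPM in the atretic libraries, against 17.5, 10.6 and 304 CPM in the healthy ones. HSD3B1, a steroid dehydrogenase, had 2.04 to 2.25 CPM in the atretic libraries, against 3.60, 2.40 and 6.56 CPM in the healthy ones, and the theca gene CYP17A1 lay between 0 and 0.41 CPM in all 6. The part of these cells in the results below was not tested. Fold changes below are therefore given with and without healthy replicate 3. In bulk RNA, fewer cells of a type and less RNA per cell cannot be told apart.

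With all 6 libraries none of the 8 genes passed the test between atretic and healthy follicles, and 0.068% of all tested loci passed, 0.0476% as higher and 0.0204% as lower (edgeR's quasi-likelihood test, adjusted over all 14702 loci). The smallest adjusted p among the 8 was 0.266, for the droplet coat gene PLIN3. At an unadjusted p under 0.05 by edgeR, 2 of the 8 were lower in atretic libraries and 0 higher, where 12.8% of all loci passed in either direction. DESeq2 called 0 of the 8, where it called 4.28% of all loci, 2.53% as higher and 1.75% as lower. CPT1A, CPT2, HADHB and PLIN3 fell in atretic follicles when healthy replicate 3 was left out, and none of the 8 rose. In that comparison 7.91% of all loci were lower and 10.9% were higher, beside which 4 of the 8 genes were lower and 0 higher. It set the 3 atretic libraries against healthy replicates 1 and 2 alone, and leaving out any other single library called 0 of the 8. The median log2 fold change of the 8 genes, atretic over healthy, was -0.16 with all libraries and -0.29 without healthy replicate 3. Over all tested loci the medians were -0.03 and -0.01.

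**Figure D1:**
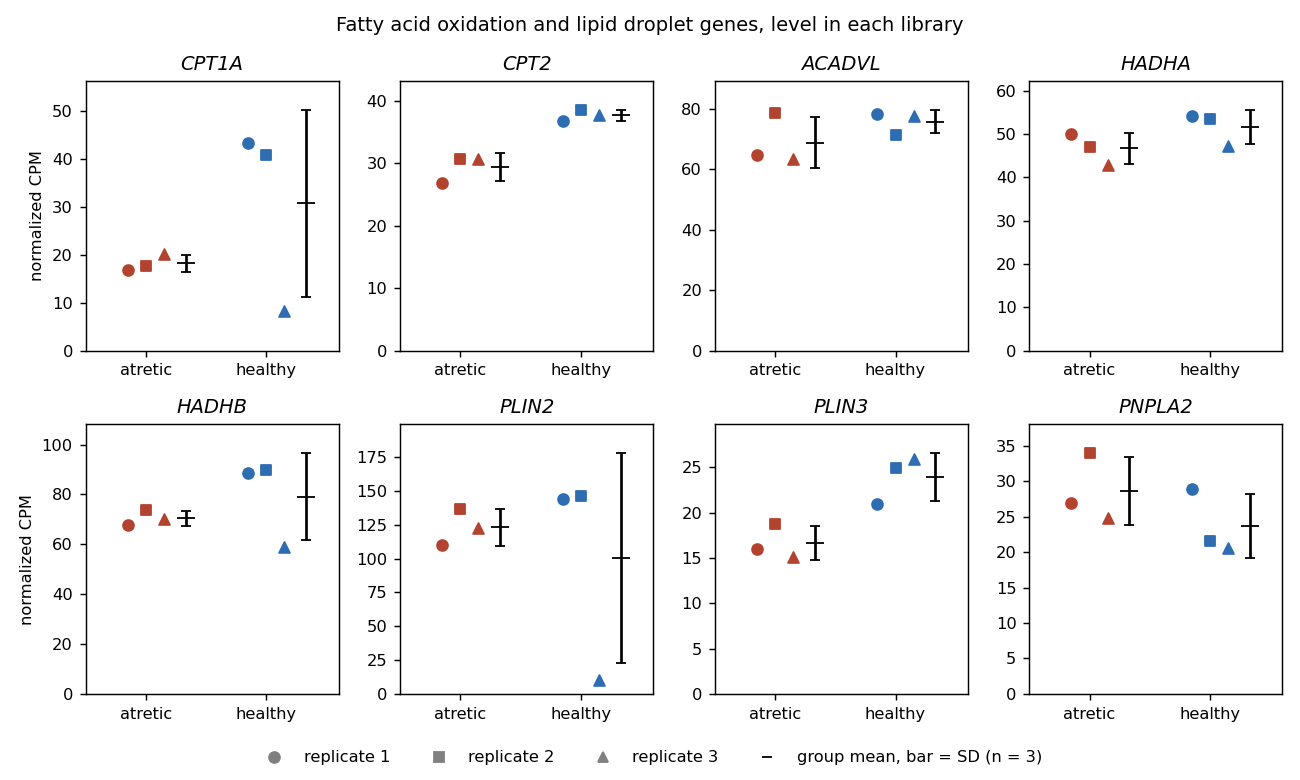
Normalized CPM (y axis, linear and starting at 0) of the 8 genes in 3 atretic (red) and 3 healthy (blue) libraries, with replicates told apart by symbol and the group mean and SD in black. CPT1A at 8.30 CPM and PLIN2 at 10.5 CPM in healthy replicate 3 lie far below the other 5 libraries, while PLIN3 and CPT2 show 3 atretic points below 3 healthy ones.

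Entry into the mitochondrion begins with CPT1A, the carnitine palmitoyltransferase of the outer membrane that is known as the rate-limiting step and is inhibited by malonyl-CoA. CPT1A lies on chromosome 21 (47903855 to 47963697, minus strand, locus MSTRG.17178; coordinates as in the deposited table). It had 16.9, 17.7 and 20.2 CPM in the atretic libraries, against 43.2, 40.7 and 8.30 CPM in healthy replicates 1, 2 and 3. The groups overlapped because healthy replicate 3 lay below every atretic library, while the other healthy libraries lay above all of them. The means were 18.3 ± 1.76 CPM in atretic and 30.7 ± 19.4 CPM in healthy (SD, n = 3). The log2 fold change was -0.75 (SE 0.55, edgeR adjusted p = 0.628). Leaving out healthy replicate 3 gave -1.20 (SE 0.12, edgeR adjusted p = 5.7e-05), a 2.30-fold lower level in atretic, the largest change among the 8 genes in that comparison. In counts, CPT1A had 1289, 1440 and 1612 reads in the atretic libraries, against 3885, 3654 and 576 in the healthy ones.

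CPT2 turns the carnitine ester back into an acyl-CoA on the matrix side of the inner membrane. Its locus lies on chromosome 1 (29324902 to 29348329, plus strand, locus MSTRG.2296). It had 26.7, 30.7 and 30.7 CPM in the atretic libraries, against 36.8, 38.5 and 37.6 CPM in the healthy ones. Unlike CPT1A, the 3 healthy libraries lay within 2 CPM of each other and above every atretic library. The log2 fold change was -0.36 (SE 0.11, edgeR adjusted p = 0.279). It was also -0.36 without healthy replicate 3 (SE 0.11, edgeR adjusted p = 0.0405), so the size and error of the change did not rest on that library, while the adjusted p did. The gap rested on the scaling of healthy replicate 3: without normalization factors CPT2 had 31.4 CPM there and 31.5 CPM in atretic replicate 2, and the groups overlapped.

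The first oxidation of long acyl chains is carried out by ACADVL, the very long-chain acyl-CoA dehydrogenase of the inner membrane (chromosome 11, 36413900 to 36421963, minus strand, locus MSTRG.6065). It had 64.7, 78.5 and 63.4 CPM in the atretic libraries, against 78.4, 71.3 and 77.6 CPM in the healthy ones. Atretic replicate 2 lay above all healthy libraries and the other atretic libraries below them. Its log2 fold change was -0.14 (SE 0.12, edgeR adjusted p = 0.7) and without healthy replicate 3 it was -0.12 (SE 0.11, edgeR adjusted p = 0.477).

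HADHA and HADHB encode the alpha and beta subunits of the mitochondrial trifunctional protein, which carries out the remaining steps on long chains. The alpha subunit holds the hydratase and the hydroxyacyl-CoA dehydrogenase, and the beta subunit holds the thiolase. In the table the loci sit head to head on chromosome 3, HADHA at 34955680 to 34998054 on the minus strand (locus MSTRG.20344) and HADHB at 34998086 to 35027876 on the plus strand (locus MSTRG.20345). Their 5′ ends are parted by 31 bases. HADHA had 50.0, 47.1 and 42.8 CPM in the atretic libraries, against 54.2, 53.5 and 47.1 CPM in the healthy ones, with atretic replicate 1 above healthy replicate 3. HADHB had 67.7, 73.7 and 70.0 CPM in the atretic libraries, against 88.5, 89.8 and 58.9 CPM in the healthy ones, with healthy replicate 3 below all others. With all libraries the log2 fold changes were -0.15 (SE 0.11, edgeR adjusted p = 0.649) for HADHA and -0.17 (SE 0.18, edgeR adjusted p = 0.761) for HADHB. When healthy replicate 3 was left out, HADHB fell by 0.34 on the log2 scale (SE 0.09, edgeR adjusted p = 0.0189), and HADHA had -0.21 (SE 0.10, edgeR adjusted p = 0.158). Whether the subunits differed in their change was not tested in that comparison.

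**Figure D2:**
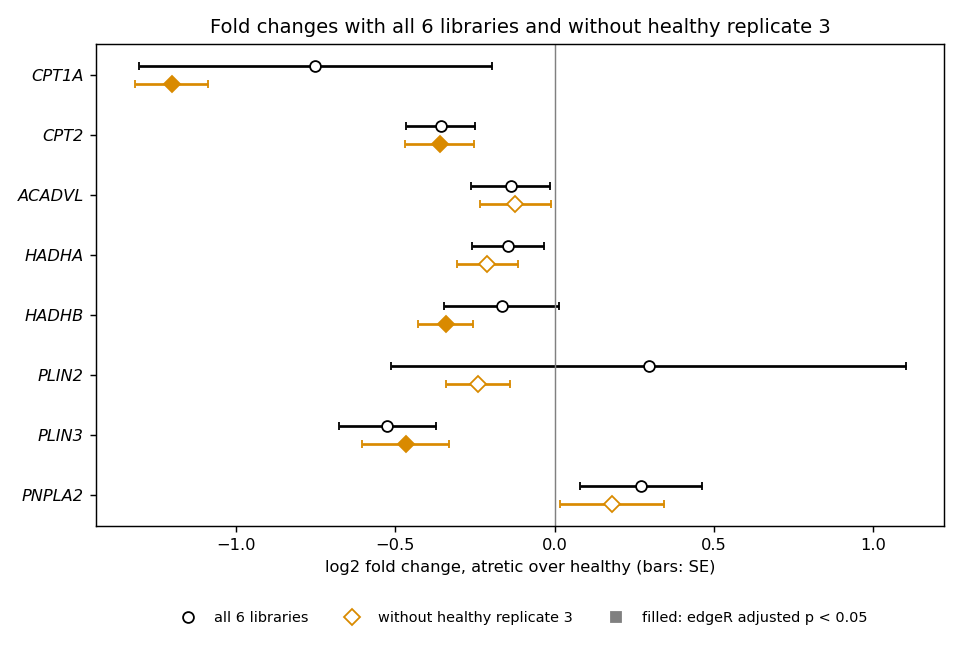
Log2 fold change, atretic over healthy (x axis), with its SE for each of the 8 genes, with all 6 libraries (black circles) and without healthy replicate 3 (orange diamonds); filled symbols have an edgeR adjusted p under 0.05. No black symbol is filled, CPT1A moves from -0.75 to -1.20 and PLIN2 from 0.30 to -0.24 when healthy replicate 3 is left out, and CPT2 stays at -0.36.

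On the lipid droplet, PLIN2 is the perilipin found on droplets of most cell types, where it shields the lipid from lipases, and its protein is degraded when it is not bound to lipid. PLIN2 lies on chromosome 2 (94829750 to 94844371, minus strand, locus MSTRG.14325). It had 110, 137 and 122 CPM in the atretic libraries, against 144, 147 and 10.5 CPM in the healthy ones. Healthy replicate 3 thus held 7.23% of the mean of healthy replicates 1 and 2, and the atretic mean was 11.7-fold above healthy replicate 3. The other 5 libraries lay between 110 and 147 CPM. With all libraries PLIN2 had a log2 fold change of 0.30 (SE 0.81) and did not pass (edgeR adjusted p = 0.918). It turned to -0.24 without healthy replicate 3 (SE 0.10, edgeR adjusted p = 0.12), with every atretic library below both remaining healthy ones.

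PLIN3 is a perilipin that moves from the cytosol onto small, newly formed droplets. Its locus on chromosome 5 (17778255 to 17799570, plus strand, locus MSTRG.24030) had 16.0, 18.7 and 15.1 CPM in the atretic libraries, against 20.9, 24.9 and 25.9 CPM in the healthy ones. All atretic libraries lay below all healthy ones, also without normalization factors (19.2 CPM in the highest atretic and 21.6 CPM in the lowest healthy library). The log2 fold change was -0.52 (SE 0.15, edgeR adjusted p = 0.266; DESeq2 adjusted p = 0.0796), and without healthy replicate 3 it was -0.47 (SE 0.14, edgeR adjusted p = 0.0382). A further locus with this name and no annotated transcript (chromosome 5, 17784714 to 17816014, MSTRG.24031) overlaps it over 14857 bases on the same strand, so the division of reads between them is uncertain. The second locus had 5.09, 5.06 and 5.40 CPM in the atretic libraries and 5.13, 5.24 and 5.32 CPM in the healthy ones, with overlapping groups.

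PNPLA2 encodes adipose triglyceride lipase, the enzyme that starts the breakdown of stored triglyceride (chromosome 21, 52262534 to 52268290, minus strand, locus MSTRG.17257). It had 26.9, 34.0 and 24.9 CPM in the atretic libraries, against 28.9, 21.5 and 20.6 CPM in the healthy ones. Healthy replicate 1 lay within the atretic range and the other healthy libraries below it. Its log2 fold change was 0.27 (SE 0.19, edgeR adjusted p = 0.613), and 0.18 without healthy replicate 3 (SE 0.16, edgeR adjusted p = 0.482). It was the one gene of the 8 with a positive value in both comparisons.

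Across the 8 genes, the groups were fully apart in 2, CPT2 and PLIN3, both with atretic lower. Of all tested loci 10.8% were apart in this direction, 11.1% in the other and 22.0% in either. Setting healthy replicate 3 aside, the atretic libraries lay below both remaining healthy ones in 6 of the 8, all but ACADVL and PNPLA2, where 25.1% of all loci did so, and they lay above in 0 of the 8, where 24.8% did. Healthy replicate 3 was the lowest of the 6 libraries in 4 of the 8 genes, CPT1A, HADHB, PLIN2 and PNPLA2, where it was the lowest in 33.2% of all loci. In log2 ratio to the mean of healthy replicates 1 and 2, PLIN2 stood at -3.78 there, and 75 of the 14702 loci had a ratio as low or lower. CPT1A stood at -2.32, with 347 loci as low or lower.

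Levels were compared between genes on the authors' FPKM scale, which is per length. In atretic libraries ACADVL had the highest FPKM level (20.4 ± 2.87, SD, n = 3), followed by HADHB (17.0 ± 1.08), HADHA (13.8 ± 0.993) and PLIN2 (13.4 ± 1.74). PLIN3 (6.99 ± 0.896 FPKM), PNPLA2 (6.33 ± 1.17) and CPT2 (6.25 ± 0.591) came next, and CPT1A was the lowest (1.67 ± 0.169). The SDs overlapped between ACADVL and HADHB, between HADHA and PLIN2 and among PLIN3, PNPLA2 and CPT2. In healthy libraries ACADVL (23.0 ± 3.11 FPKM), HADHB (19.9 ± 6.73) and HADHA (15.8 ± 3.32) had the highest means, and CPT1A (3.06 ± 2.09) was again the lowest. PLIN2 (12.1 ± 9.59 FPKM), PLIN3 (10.3 ± 1.19) and CPT2 (8.22 ± 1.18) lay between, with PNPLA2 (5.44 ± 1.62) below them. In these libraries the SDs of neighbours overlapped at every step of this order, and PLIN2 lay above HADHA in healthy replicate 2. CPT1A lay below PNPLA2 in each healthy library.

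Ratios between 2 genes of a library do not depend on how libraries are scaled. Such FPKM ratios, 3 in all, were formed after the levels had been seen. CPT1A over CPT2, the outer over the inner membrane enzyme, was 0.272, 0.248 and 0.284 in the atretic libraries, against 0.506, 0.456 and 0.095 in the healthy ones. HADHB over HADHA, the subunits of one complex, was 1.10, 1.27 and 1.33 in the atretic libraries, against 1.32, 1.36 and 1.01 in the healthy ones. PLIN2 over PLIN3 was 1.78, 1.9 and 2.1 in the atretic libraries, against 1.78, 1.52 and 0.105 in the healthy ones. All 3 ratios were lowest in healthy replicate 3, so the low PLIN2 and CPT1A there were not shared by PLIN3 and CPT2. Exact two-sided permutation tests over the 6 libraries gave p = 1, 0.9 and 0.2 for the 3 ratios (adjusted over the 3, 1, 1 and 0.6). The smallest p that 3 libraries against 3 allow is 0.1.

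**Figure D3:**
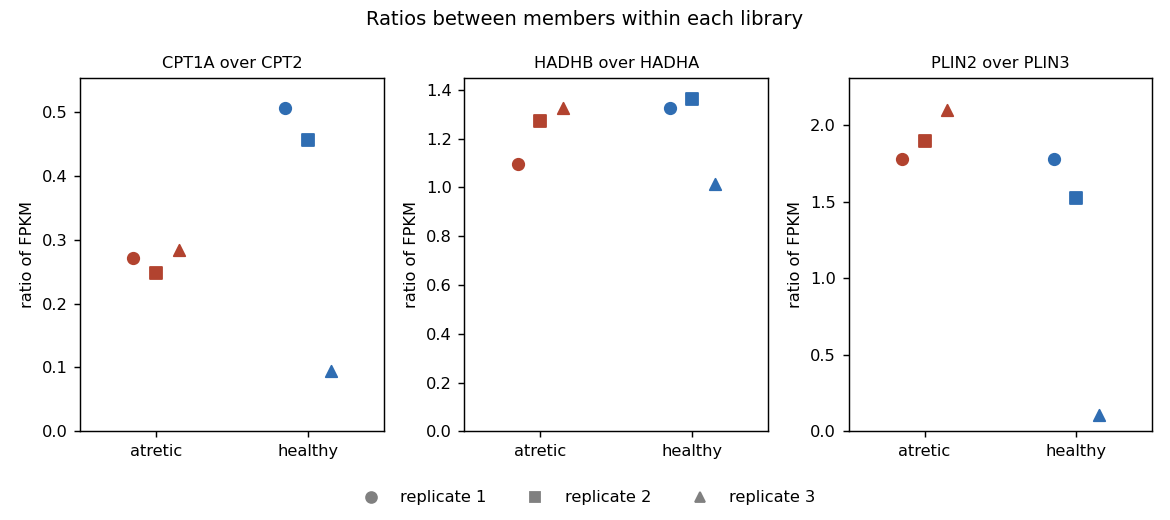
Ratio of FPKM values (y axis, linear from 0) between 2 genes of the same library, for 3 atretic (red) and 3 healthy (blue) libraries. CPT1A over CPT2 lies at 0.248 to 0.284 in atretic libraries, at 0.506 and 0.456 in the first 2 healthy replicates and at 0.095 in the third, and PLIN2 over PLIN3 is 0.105 in healthy replicate 3 and above 1.5 in all others.

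Summed macrophage, stroma and endothelial markers were higher in healthy replicates 1 and 2 than in the other 4 libraries. CPT1A, HADHA, HADHB and PLIN2 shared this order. CPT2 and PLIN3 did not share it, with 37.6 and 25.9 CPM in healthy replicate 3, and neither did ACADVL and PNPLA2. Of 15 macrophage markers, 9 had a locus of their own. All 9 had negative log2 fold changes with all libraries, as 7939 of all 14702 loci did. Their summed level was 77.0, 92.4 and 79.6 CPM in the atretic libraries, against 307, 290 and 90.9 CPM in the healthy ones, with none of the 9 at 0 in all libraries. For this sum, healthy replicate 3 lay within the atretic range. Without healthy replicate 3, 8 of the 9 macrophage markers passed as lower in atretic libraries by edgeR, where 7.91% of all loci did. The 6 stroma markers summed to 62.6, 66.8 and 67.3 CPM in the atretic libraries, against 137, 136 and 43.7 CPM in the healthy ones. The 6 endothelial markers summed to 17.4, 18.4 and 18.8 CPM in the atretic libraries, against 37.4, 45.1 and 22.8 CPM in the healthy ones, with the defining genes CDH5 and EMCN between 0 and 0.058 CPM everywhere. PECAM1 alone had 6.84, 7.39 and 5.13 CPM in the atretic libraries, against 21.9, 30.2 and 16.1 CPM in the healthy ones. VWF overlapped, with 4.17, 5.23 and 5.81 CPM in atretic and 5.49, 4.53 and 3.19 CPM in healthy libraries. All 6 endothelial markers fell under the filter on low values. The part of these cells in the results on CPT1A, CPT2, HADHB and PLIN3 was not tested.

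Of 24 other genes of mitochondrial beta-oxidation, 15 were tested on a locus of their own, and the rest shared a locus, had a mean FPKM under 1, lacked an annotated protein-coding transcript or were not analysed here. None of the 15 passed with all libraries (smallest edgeR adjusted p = 0.469; 0 at an unadjusted p under 0.05, 0 by DESeq2), and 10 had a negative value, as 7939 of all 14702 loci did, the median being -0.16. Without healthy replicate 3, 1 fell and 0 rose, where 7.91% of all loci were lower and 10.9% higher. The one that fell was MLYCD, malonyl-CoA decarboxylase, which removes the inhibitor of CPT1. It had 11.2, 11.7 and 14.3 CPM in the atretic libraries, against 17.1, 19.2 and 11.4 CPM in the healthy ones, and its log2 fold change without healthy replicate 3 was -0.55 (edgeR adjusted p = 0.0265), against -0.36 with all libraries (edgeR adjusted p = 0.582). Healthy replicate 3 again lay in the atretic range.

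The short-chain dehydrogenase ACADS had 14.7, 16.0 and 11.6 CPM in the atretic libraries, against 17.9, 18.0 and 16.9 CPM in the healthy ones. The groups did not overlap in 4 of the 15 genes, 2 lower and 2 higher in atretic, where 22.0% of all loci did not. The lower ones were ACADS and ETFA, a subunit of the flavoprotein that takes electrons from the acyl-CoA dehydrogenases, with 14.0, 14.2 and 13.3 CPM in atretic against 18.7, 16.9 and 14.8 CPM in healthy libraries. The higher ones were the acyl-CoA dehydrogenases ACADL, with 5.58 to 6.14 CPM in atretic against 3.52 to 5.50 CPM in healthy libraries, and ACAD11, with 56.6 to 61.3 CPM in atretic against 53.6 to 53.8 CPM in healthy libraries. None of the 4 passed. By edgeR the adjusted p of ACADS was 0.469 (0.134 without healthy replicate 3) and that of ETFA was 0.47 (0.0649 without healthy replicate 3), with log2 fold changes of -0.32 and -0.28 (-0.35 and -0.37 without it). ACADL stood at 0.34 and ACAD11 at 0.12 on the log2 fold change scale (0.37 and 0.11 without healthy replicate 3). ETFDH, which passes those electrons to the respiratory chain, stood at 0.05 on that scale (0.04 without healthy replicate 3). The carnitine acylcarnitine translocase SLC25A20, which links CPT1A to CPT2, had -0.20 (-0.29 without it), and the carnitine acetyltransferase CRAT had -0.22 (-0.18 without it). The short-chain hydroxyacyl-CoA dehydrogenase HADH had -0.22 (-0.32 without it), and the thiolase ACAA2 turned sign, with 0.13 and with -0.05 without healthy replicate 3. For these 5 genes the edgeR adjusted p ran from 0.524 to 0.896 with all libraries and from 0.178 to 0.801 without healthy replicate 3. ETFB was counted on a locus shared with other genes and is not reported.

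Of 15 genes of peroxisomal beta-oxidation, which shortens very long chains, 14 were tested. None passed with all libraries by edgeR or DESeq2, with 3 lower and 0 higher at an unadjusted p under 0.05 by edgeR (12.8% of all loci in either direction), and the median log2 fold change was -0.15. Leaving out healthy replicate 3, 2 fell and 1 rose, where 7.91% of all loci were lower and 10.9% higher. ACOX2, the branched-chain acyl-CoA oxidase, had 71.9, 65.4 and 66.3 CPM in the atretic libraries, against 47.5, 42.1 and 64.9 CPM in the healthy ones, and its log2 fold change was 0.40 with all libraries (edgeR adjusted p = 0.415) and 0.60 without healthy replicate 3 (edgeR adjusted p = 0.00194). EHHADH, the peroxisomal bifunctional enzyme, had 36.3, 41.6 and 41.9 CPM in the atretic libraries, against 55.6, 46.4 and 129 CPM in the healthy ones. Healthy replicate 3 was thus the highest library for EHHADH. Its log2 fold change was -0.95 with all libraries (edgeR adjusted p = 0.373) and -0.36 without healthy replicate 3 (edgeR adjusted p = 0.0481). HSD17B4, the other bifunctional enzyme, was the second that fell (log2 fold change -0.32 without healthy replicate 3, edgeR adjusted p = 0.0477; -0.17 and 0.7 with all libraries). Atretic libraries lay fully below healthy ones in 3 of the 14 genes, EHHADH, CROT and PEX11A, where 10.8% of all loci did. They lay fully above in 1, ACOX2, where 11.1% did. The carnitine octanoyltransferase CROT (-0.55) and the peroxisome proliferation gene PEX11A (-0.94) had edgeR adjusted p = 0.353 and 0.279. Without healthy replicate 3, CROT and PEX11A had -0.59 and -1.03 (edgeR adjusted p = 0.0719 and 0.0608). PEX11A was low, with 47 to 70 counts in the atretic libraries and 91 to 164 in the healthy ones.

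**Figure D4:**
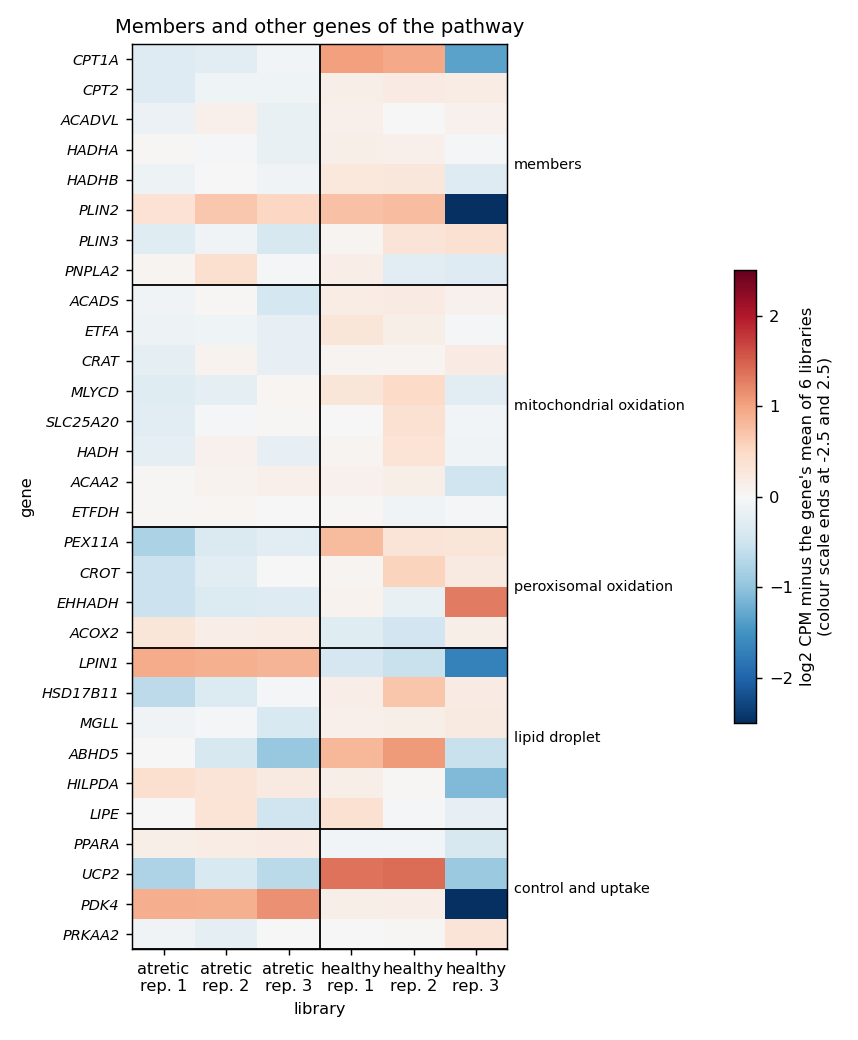
Log2 CPM minus each gene's mean of the 6 libraries (colour) for the 8 genes and 22 other genes of the pathway (rows) in 3 atretic and 3 healthy libraries (columns). CPT1A is high in healthy replicates 1 and 2 alone, PLIN2 and PDK4 are far below their means in healthy replicate 3, and LPIN1 is high in all 3 atretic libraries.

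Of 35 other genes of droplets, triglyceride synthesis and lipolysis, 17 were tested, and none passed with all libraries by edgeR (1 higher and 2 lower at an unadjusted p under 0.05, where 12.8% of all loci passed in either direction). Their median log2 fold change was -0.14. Atretic libraries lay fully below healthy ones in 2 of the 17, MGLL and HSD17B11, where 10.8% of all loci did. They lay fully above in 2, LPIN1 and HILPDA, where 11.1% did. Without healthy replicate 3, 2 fell and 1 rose, where 7.91% of all loci were lower and 10.9% higher. LPIN1, a phosphatidate phosphatase that makes diacylglycerol for triglyceride and that also acts as a coactivator of fatty acid oxidation genes, had 269, 262 and 254 CPM in the atretic libraries, against 105, 95.6 and 43.7 CPM in the healthy ones. The groups were far apart, with a mean of 262 ± 7.44 CPM in atretic and 81.6 ± 33.2 CPM in healthy (SD, n = 3). Its log2 fold change was 1.68 (SE 0.32, edgeR adjusted p = 0.151). LPIN1 was the one gene of the list that DESeq2 called, as higher (DESeq2 adjusted p = 9.9e-05), and it rose without healthy replicate 3 (log2 fold change 1.38, edgeR adjusted p = 3.2e-06).

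The lipase PNPLA2 has a known coactivator and known inhibitors. ABHD5, the coactivator, had 4.44, 3.32 and 2.27 CPM in the atretic libraries, against 7.82, 9.21 and 3.0 CPM in the healthy ones, so healthy replicate 3 lay among the atretic libraries. Its log2 fold change was -0.999 (SE 0.46, edgeR adjusted p = 0.432), and without healthy replicate 3 it fell by 1.35 on the log2 scale (edgeR adjusted p = 0.0051). The inhibitor HILPDA, a hypoxia-induced droplet protein, had 13.8, 13.1 and 12.2 CPM in the atretic libraries, against 11.6, 10.7 and 4.86 CPM in the healthy ones, and did not pass (log2 fold change 0.53, edgeR adjusted p = 0.566; 0.22 and 0.294 without healthy replicate 3). The inhibitor G0S2 had 0 to 11 counts in the atretic libraries and 0 to 26 in the healthy ones, too few to be tested.

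The lipases that act after PNPLA2 did not pass. LIPE, hormone-sensitive lipase, stood at -0.08 on the log2 scale (edgeR adjusted p = 0.937; -0.20 and 0.611 without healthy replicate 3). MGLL, the monoglyceride lipase, had 22.5, 23.7 and 18.5 CPM in the atretic libraries, against 26.4, 26.8 and 28.0 CPM in the healthy ones, without overlap (log2 fold change -0.33, edgeR adjusted p = 0.39; -0.30 and 0.126 without healthy replicate 3). HSD17B11, a short-chain dehydrogenase found on droplets, had 3.98, 4.98 and 6.06 CPM in the atretic libraries, against 7.05, 10.2 and 7.24 CPM in the healthy ones. It did not pass with all libraries (log2 fold change -0.70, edgeR adjusted p = 0.314) and fell without healthy replicate 3 (log2 fold change -0.78, edgeR adjusted p = 0.0376). Of the other perilipins, PLIN4 had 11.7 to 14.0 CPM in the atretic libraries and 8.40 to 12.1 CPM in the healthy ones, and PLIN5 and PLIN1 had mean FPKM levels of 0.7 and 0.102 over the 6 libraries. DGAT2, a triglyceride synthase, had at most 50 counts in any library.

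Of 20 genes that control fatty acid oxidation or take up fatty acids, 12 were tested and none passed with all libraries by edgeR or DESeq2, with 1 higher and 1 lower at an unadjusted p under 0.05 by edgeR (12.8% of all loci in either direction). In the comparison without healthy replicate 3, 2 fell and 1 rose, where 7.91% of all loci were lower and 10.9% higher. The median log2 fold change of the 12 was -0.06 with all libraries and 0.07 without healthy replicate 3. PPARA, a nuclear receptor that switches on oxidation genes in liver, had 85.9, 87.7 and 89.4 CPM in the atretic libraries, against 74.4, 73.6 and 58.8 CPM in the healthy ones. Atretic libraries lay fully above healthy ones in 3 of the 12 genes, PPARA, PPARD and PDK4, where 11.1% of all loci did. They lay fully below in 0, where 10.8% did. The log2 fold change of PPARA was 0.35 (SE 0.13, edgeR adjusted p = 0.327; 0.24 and 0.0672 without healthy replicate 3). Its coactivator PPARGC1A had 7 to 40 counts in the atretic libraries and 21 to 32 in the healthy ones.

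PDK4, the pyruvate dehydrogenase kinase that turns cells away from glucose and is a known target of PPAR receptors, had 355, 351 and 421 CPM in the atretic libraries, against 211, 213 and 20.0 CPM in the healthy ones. Its groups did not overlap and healthy replicate 3 was again the lowest, as for PLIN2 and CPT1A. The log2 fold change was 1.34 (SE 0.76, edgeR adjusted p = 0.523), and PDK4 rose by 0.82 on the log2 scale without healthy replicate 3 (edgeR adjusted p = 0.000232). CPT1A, which is also known as a PPAR target, moved in the other direction in that comparison.

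UCP2, an uncoupling protein of the inner membrane, had 17.8, 23.3 and 18.9 CPM in the atretic libraries, against 77.0, 79.1 and 16.0 CPM in the healthy ones. As with CPT1A, healthy replicates 1 and 2 were high and healthy replicate 3 lay below the atretic libraries. The log2 fold change was -1.52 (SE 0.56, edgeR adjusted p = 0.329) with all libraries and -1.97 without healthy replicate 3 (edgeR adjusted p = 2.9e-06). The fatty acid translocase CD36, named after its values were seen, had 89.8, 88.0 and 102 CPM in the atretic libraries, against 149, 150 and 12.1 CPM in the healthy ones. CD36 fell by 0.68 on the log2 scale without healthy replicate 3 (edgeR adjusted p = 0.000482) and had -0.15 with all libraries (edgeR adjusted p = 0.958). UCP2 and CD36 are abundant in macrophages, whose part was not tested here either. The 9 macrophage markers summed to 77.0, 92.4 and 79.6 CPM in the atretic libraries, against 307, 290 and 90.9 CPM in the healthy ones. For this sum healthy replicate 3 lay within the atretic range, while for UCP2 and CD36 it lay below that range. The AMP-activated kinase subunit PRKAA2 stood at -0.22 on the log2 scale (edgeR adjusted p = 0.548; -0.11 and 0.476 without healthy replicate 3).

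The annotated genes whose profiles over the 6 libraries were most like those of PLIN2 and CPT1A were sought among 7827 protein-coding loci by the Euclidean distance of log2 CPM, centred on each gene's mean. Among the nearest to PLIN2 were the tetraspanin-like membrane protein TM4SF1 (distance 0.243) and the AP-1 factor FOSL2 (0.328). FOSL2 had 509, 553 and 508 CPM in the atretic libraries, against 511, 524 and 47.2 CPM in the healthy ones. Nearest to CPT1A were the adhesion molecule ICAM1 (0.193), the calcium-binding family member S100A10 (0.236) and the retinal dehydrogenase ALDH1A1 (0.264). ICAM1 had 9.06, 11.0 and 10.6 CPM in the atretic libraries, against 24.5, 23.2 and 4.08 CPM in the healthy ones. In TM4SF1 and FOSL2, as in PLIN2, healthy replicate 3 lay below the other 5 libraries. In ICAM1, S100A10 and ALDH1A1, as in CPT1A, the atretic libraries lay between healthy replicate 3 and the other healthy ones. This likeness follows from the choice of genes by profile over the same libraries.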

How the data were processed

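The deposited table gives, per the file headers, a raw count and an FPKM value (scaled by length and library size by the authors) for each locus in each of 6 libraries. StringTie 2.1.6, HISAT2 2.0.4, SAMtools, FastQC 0.11.9 and cutadapt 1.9 are named, without roles, in the submitters' processing notes. Genome build, annotation and use of strand: not given in the sources used here. Groups came from the initials AGC (atretic) and HGC (healthy) of the titles, read with the design text. The 5640 loci without a name (8.88 to 11.5% of counts) were left out. Named loci with a mean FPKM of at least 1 (14702) were fitted with edgeR 4.0.16 (TMM, group alone, quasi-likelihood, two-sided, Benjamini-Hochberg at 0.05). The planned tests fitted the deposited counts. DESeq2 1.42.0, R 4.3.3, Python 3.11.15, pandas 2.3.3, scipy 1.17.1 and matplotlib 3.10.9 were also used. The fit was tested on simulated data. SE is the log2 fold change over the root of the F statistic.

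The genes and lists were chosen with earlier results of these data known. Named in each list were genes past the threshold, the 4 of smallest unadjusted p and genes set by role. Counts over lists cover genes alone on a protein-coding locus. Symbols were matched by gene name, with 1 found through its gene number. Alternatives were other size factors, DESeq2, no filter, unnamed loci included, a replicate block, each library left out and, chosen after seeing the data, no normalization factors. The main fit did not treat the replicate numbers as pairs. Deviations of same-numbered libraries from their group means correlated at -0.177, 0.068 and -0.01. With healthy replicate 3 so far from its group, these values cannot exclude a pairing. Of the genes with the nearest profiles, 1 is not reported here.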

Additional observations from a re-analysis of the deposited data

How the results depend on the processing

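No gene of the 8 passed in any setting that kept healthy replicate 3, by edgeR or DESeq2. Among these settings the lowest adjusted p was 0.0796, for PLIN3 by DESeq2. Leaving out single libraries gave 0 to 4 of the 8 called and 0 to 2761 of all loci called, and both highest values came without healthy replicate 3. PLIN2 alone changed direction, to -0.24 without healthy replicate 3, ranged from -0.24 to 0.68 when single libraries were left out and reached 0.86 with the replicate block. CPT1A ranged from -1.20 to -0.41, and the other 6 genes kept their sign. Of 10 loci called in all (7 higher and 3 lower), DESeq2 gave 629, no filter on low values 2, and the inclusion of unnamed loci 37. Without normalization factors 11 were higher and 1 lower. With the replicate number as a block, 0 loci and 0 of the 8 genes were called, and 1 of 6 libraries correlated best with the library of its own number. The 8 genes had at least 576 counts in every library. PLIN1, G0S2, DGAT2 and PPARGC1A had at most 50 counts.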

Other observations

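As a further view chosen after the data were seen, the table's own KEGG annotation of fatty acid degradation was counted outside the 8 genes. Of 20 tested genes there, 1 was higher (the acyl-CoA synthetase ACSL3) and 0 were lower with all libraries by edgeR, where 0.0476% and 0.0204% of all loci were. DESeq2 called 4 higher and 1 lower with all libraries, where it called 2.53% and 1.75% of all loci. Without healthy replicate 3, edgeR called 4 higher and 2 lower, where 10.9% and 7.91% of all loci were. Their median log2 fold change was -0.02 with all libraries and -0.09 without healthy replicate 3.

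The summed level of the 5 oxidation genes was 226, 248 and 227 CPM in the atretic libraries, against 301, 294 and 230 CPM in the healthy ones. The 3 droplet genes summed to 153, 189 and 162 CPM in the atretic libraries, against 194, 193 and 57.0 CPM in the healthy ones. PLIN2 made up 71.9 to 75.4% of the droplet sum in the atretic libraries, against 74.3, 75.9 and 18.4% in healthy replicates 1, 2 and 3.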
